A study of Mus musculus with 9 samples.

Results

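Among the 9 libraries of this series, all labelled as mouse whole brain, 5 held 100 or more raw counts of Gabra6 and 4 held fewer. Gabra6 encodes the α6 subunit of the GABA-A receptor, which in the adult brain is made mainly by granule cells of the cerebellum. The libraries with 100 or more counts were CON replicates 2 and 3, DNP replicate 1 and BAC replicates 1 and 3, and those under 100 were CON replicate 1, DNP replicates 2 and 3 and BAC replicate 2. The libraries were chosen by their measured Gabra6 counts, so every difference between them below is a description of these 9 libraries, with no test. Below, libraries with Gabra6 are those with 100 or more counts and libraries without it those under 100. Hoxb5, a homeobox gene active in the caudal hindbrain and spinal cord, was used beside it to tell cerebellum from hindbrain tissue.

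All mice were male C57BL/6, 7 weeks old at the start. The CON mice were normal controls given saline. For the DNP group, the diabetic neuropathic pain model, mice ate a 60% fat diet over 4 weeks, were injected with 50 mg/kg streptozotocin daily for 7 days and later received saline. The BAC mice went through the same diet and streptozotocin and then were treated with 8 mg/kg baclofen, which activates GABA-B receptors, every day for 7 days. Each group had 3 mice and 1 poly(A) library per mouse.

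Granule cells are the most numerous neurons of the mouse brain and are packed in the inner layer of the cerebellar cortex. They receive mossy fibre input and send parallel fibres to Purkinje cells, the inhibitory output neurons of the cerebellar cortex, beside which lie Bergmann glia and several kinds of interneuron. Granule, Purkinje and Bergmann genes are therefore present together wherever cerebellar cortex is part of a sample. Hox genes are silent in the cerebellum and mark the hindbrain behind it and the spinal cord.

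The genes lie apart in the genome. In GENCODE M21 on GRCm38, Gabra6 spans chromosome 11, 42306437 to 42321072, on the minus strand. Cbln3, a granule cell cerebellin, spans chromosome 14, 55878913 to 55884392, on the minus strand. Pcp2, a Purkinje cell gene that modulates G protein signalling, spans chromosome 8, 3623371 to 3625545, also on the minus strand. Hoxb5 spans chromosome 11, 96303336 to 96306121, on the plus strand.

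The sequences just before the starts of Gabra6, Cbln3 and Pcp2 are shown because these genes followed each other through the libraries, the first pair being granule cell genes and the last a Purkinje cell gene. They are RefSeq promoter windows of build GRCm38.p6, read 5′ to 3′ on the gene's strand, and bases inside the annotated gene were left off. Capitals mark matches, on either strand, to TTGGC, the core recognised by nuclear factor I proteins, or to the E-box CAGATG.
Gabra6, 250 bases, chr11:42321073-42321322: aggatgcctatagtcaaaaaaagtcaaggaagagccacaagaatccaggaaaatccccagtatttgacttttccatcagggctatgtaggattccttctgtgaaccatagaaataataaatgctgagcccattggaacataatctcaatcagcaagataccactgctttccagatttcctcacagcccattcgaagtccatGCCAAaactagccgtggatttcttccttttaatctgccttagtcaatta
Cbln3, 114 bases, chr14:55884393-55884506: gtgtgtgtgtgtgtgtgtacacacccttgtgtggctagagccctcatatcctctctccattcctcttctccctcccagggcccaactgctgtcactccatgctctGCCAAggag
Pcp2, 250 bases, chr8:3625548-3625797: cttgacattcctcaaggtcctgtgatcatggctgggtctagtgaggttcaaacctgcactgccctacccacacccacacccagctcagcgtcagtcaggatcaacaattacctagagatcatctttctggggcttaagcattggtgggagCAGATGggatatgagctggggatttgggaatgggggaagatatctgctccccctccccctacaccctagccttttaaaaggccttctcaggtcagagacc

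TTGGC occurred 1 time before Gabra6 and 1 time before Cbln3, each as GCCAA on the strand shown, and not in the Pcp2 window. CAGATG occurred 1 time, before Pcp2. No 2 of these matches overlapped. Of 32851 promoter windows of 250 bases, 41.5% held TTGGC and 14.4% held CAGATG, and of the first 114 bases of the same windows 19.9% held TTGGC, so that these letters are common.

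The Gabra6 count was 4828 in CON replicate 2, 2808 in BAC replicate 1, 954 in BAC replicate 3, 735 in CON replicate 3 and 432 in DNP replicate 1. It was 42 in CON replicate 1 and 0 in DNP replicate 2, DNP replicate 3 and BAC replicate 2. The library just inside the threshold thus held 432 counts and the library just outside it 42. On the CPM scale (counts scaled to a common library size after TMM normalisation), the 6 libraries with any Gabra6 spanned a 124-fold range, from 2.79 to 344, and each of the 3 groups held libraries on both sides of the threshold. In a library at 0, a count of 0 still allows a level of up to 3 counts, or 0.197 to 0.207 CPM in these 3 libraries, for counting error only.

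CON replicate 1 was under the threshold but was not free of granule cell genes. It held 139 counts of Cbln3 and 172 of Fat2, an atypical cadherin of granule cells. DNP replicates 2 and 3 and BAC replicate 2 held 3, 8 and 7 counts of Cbln3 and 3, 0 and 3 of Fat2. In these 3 libraries Cbln3 and Fat2 were therefore at or near 0, although all 9 labels name whole brain. The Purkinje cell gene Pcp2 was also low there, at 3, 3 and 7 counts. Not every such gene was near 0. Cdh15, another granule cell gene, held 67, 24 and 57 counts in them, against 34 in CON replicate 1. Car8, a Purkinje cell gene, held 103, 123 and 86. In bulk RNA, fewer cells of a type and less RNA per cell cannot be told apart.

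Hoxb5 divided the 5 libraries with Gabra6 again. It held 747 counts in BAC replicate 1, 1000 in BAC replicate 3 and 232 in DNP replicate 1, against 2 in CON replicate 2 and 0 in CON replicate 3. The 4 libraries under the Gabra6 threshold all had 0 Hoxb5 counts. Hoxb5 over 100 was thus found in 3 libraries, all of them with Gabra6 and none of them CON, and the difference within CON, replicates 2 and 3 against replicate 1, is the only one within a group that sets libraries with and without Gabra6 side by side in the absence of Hoxb5.

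**Figure D1:**
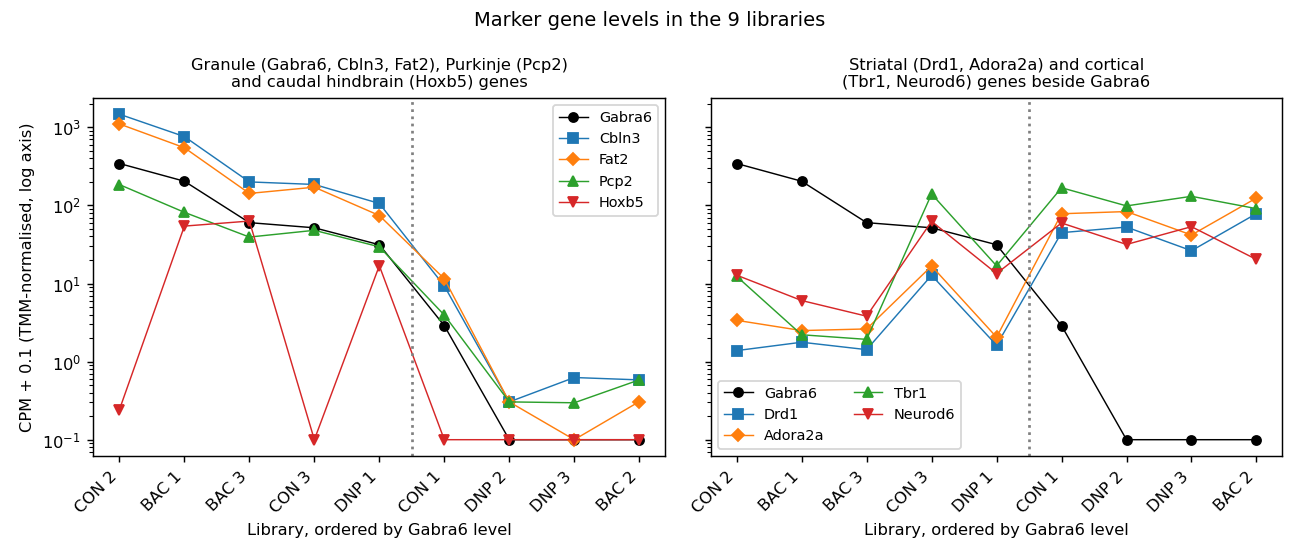
CPM plus 0.1 on a log axis in the 9 libraries, placed in order of Gabra6, with the dotted line between 432 and 42 Gabra6 counts. Cbln3, Fat2 and Pcp2 descend with Gabra6, Hoxb5 is high in BAC 1, BAC 3 and DNP 1 alone, and Drd1 and Adora2a are higher in each of the 4 libraries to the right of the line than in any to the left.

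Library totals were 13107382 to 16008129 counts, 13107382 to 15454298 in the 5 libraries with Gabra6 and 14645019 to 16008129 in the other 4. Mitochondrial genes took 4.34% to 6.68% of counts with Gabra6 and 5.18% to 7.23% without. No pair of replicates agreed within sampling noise, with chi-square per degree of freedom from 15.7 to 122. The first principal component of log2 CPM held 47.6% of the variance. Of 53465 genes, 18501 passed the filter on low counts and make up all gene counts below.

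The list headed as granule cell genes restricted to the cerebellum held Cbln3, Fat2, Barhl1 and Cdh15 beside Gabra6, which defined the libraries and is left out of the counts and medians given here. The heading is only a name for the list, as Cdh15 held 24 to 67 counts in the libraries with 0 Gabra6 counts. All 4 genes beside Gabra6 were higher in every library with Gabra6 than in any library without. Their median difference in mean log2 CPM (prior count of 2), with minus without, was 6.16, against 0.0065 over all genes tested. It was 4.45 within CON, 6.00 within DNP and 6.89 within BAC. Genes near 0 in the libraries without Gabra6 passed the filter on low counts only through those with it, so counts and medians over lists are descriptions. Over all genes, 976 of 18501 (5.28%) were higher without overlap and 934 (5.05%) lower without overlap.

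Cbln3 had 1473 CPM in CON replicate 2, 761 in BAC replicate 1, 199.9 in BAC replicate 3, 185 in CON replicate 3 and 106 in DNP replicate 1. CON replicate 1 followed at 9.22 CPM, and the other 3 libraries lay between 0.205 and 0.525. This is the order of Gabra6 in all 33 pairs of libraries that Gabra6 does not tie. The difference in mean log2 CPM was 8.30, with 5.80 within CON, 7.80 within DNP and 9.30 within BAC.

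Fat2 ran from 1104 CPM in CON replicate 2 to 74.2 in DNP replicate 1, with 11.4 in CON replicate 1 and at most 0.207 in the remaining libraries. Barhl1, a homeobox gene of granule cell precursors, was lower than Fat2 in the libraries with Gabra6. It had 14.5 CPM in CON replicate 2, 10.4 in DNP replicate 1 and 3.02 in CON replicate 3. Its level in DNP replicate 1 exceeded that in CON replicate 3, unlike Gabra6, and its Hoxb5 term was 1.13 log2 units, the largest of the list. Cdh15, a cadherin, had 73.0 CPM in CON replicate 2 and 5.79 in DNP replicate 1. Its highest level without Gabra6 was 4.57 CPM in DNP replicate 2, so that the gap between the libraries was narrow.

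The Hoxb5 term comes from a least-squares fit of log2 CPM over the 9 libraries on log2 CPM of Gabra6 and an indicator of 100 or more Hoxb5 counts. It gives how much higher a gene was with Hoxb5 at equal Gabra6, and the slope gives log2 units of the gene per log2 unit of Gabra6. Cbln3 had a slope of 1.01 and a Hoxb5 term of -0.14. Fat2 had 1.08 and -0.45. Both thus varied about in proportion to Gabra6, with little or no addition in the libraries with Hoxb5.

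The counts of Cbln3 kept nearly the same ratio to those of Gabra6 in the 6 libraries that hold any. There were 4.28 Cbln3 counts per Gabra6 count in CON replicate 2 (exact 95% interval 4.15 to 4.42, counting error only), 3.73 in BAC replicate 1 and 3.31 in CON replicate 1 (2.33 to 4.79). The ratio was not constant within counting error. The interval of CON replicate 2 lay above those of CON replicate 3 (3.31 to 3.90), BAC replicates 1 and 3 and DNP replicate 1. The highest ratio was 1.29 times the lowest, while Gabra6 itself spanned 124-fold. For Fat2 the ratios ran from 2.37 to 4.10, a range of 1.73-fold, and for Ppp1r17, a Purkinje cell substrate of cGMP-dependent kinase, from 0.345 to 0.495, a range of 1.43-fold. The 2 CON libraries with Gabra6 had the higher Fat2 ratios, at 3.21 and 3.31, against 2.37 to 2.69 in the 3 libraries with Hoxb5, and these intervals did not overlap.

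The other 7 genes spread more. The ratio range was 2.24-fold for En2, 2.94-fold for Car8, 3.04-fold for Cbln1 and 3.46-fold for Pcp2. It was 7.09-fold for the Bergmann glia gene Gdf10, 7.43-fold for Neurod1 and 12.4-fold for Slc1a6. In all 7 of these the highest ratio was that of CON replicate 1, with 6.50 Neurod1 counts per Gabra6 count (4.68 to 9.22) against 0.875 to 1.28 in the other 5 libraries. Without CON replicate 1, Neurod1 was about as even as Fat2.

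**Figure D2:**
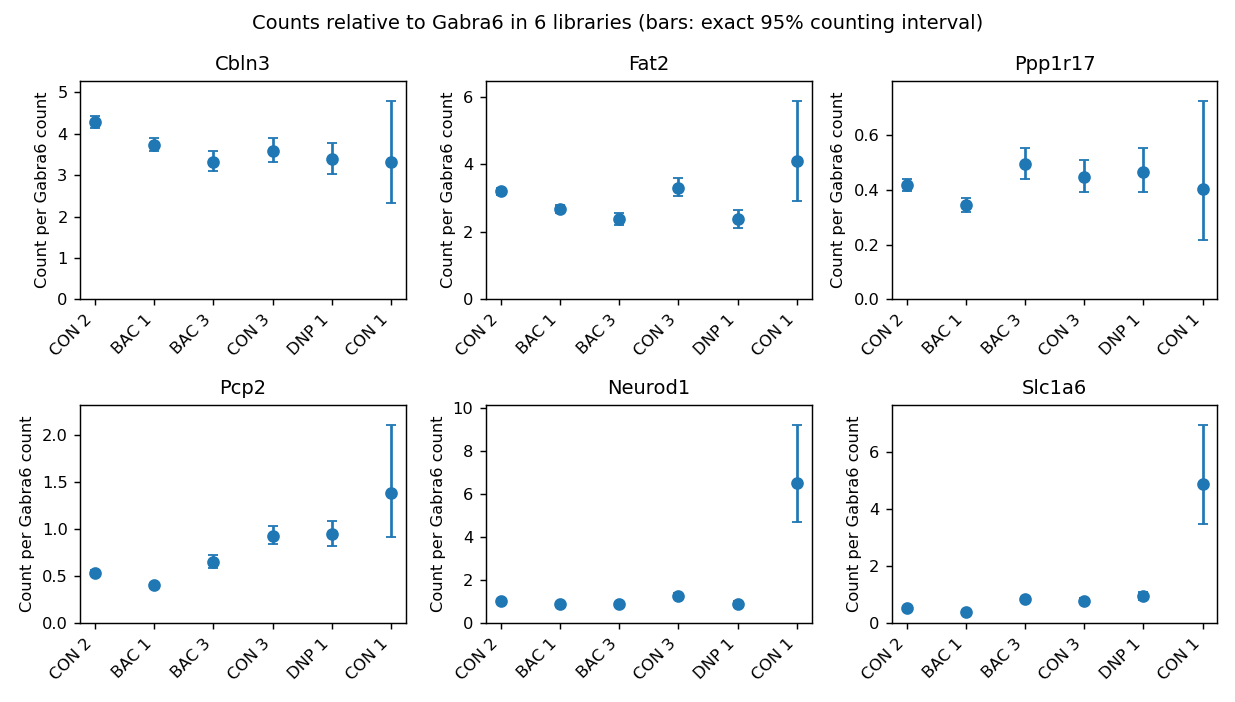
Counts of 6 genes per Gabra6 count in the 6 libraries with any Gabra6 counts, each axis from 0, with bars for the exact 95% counting interval. Cbln3 stays between 3.31 and 4.28, whereas Neurod1 and Slc1a6 stand at 6.50 and 4.86 in CON 1 and at most 1.28 and 0.935 in the other 5.

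Of 18 genes that granule cells share with neurons elsewhere, 16 were higher with Gabra6, 7 without overlap, against 5.28% of all genes. The median difference over the 18 was 1.47 log2 units. Within CON the median was 2.52, within DNP 0.52 and within BAC 1.70. Cbln1, the secreted cerebellin that parallel fibres present to Purkinje cell GluD2, had 969 CPM in CON replicate 2, 102 in DNP replicate 1 and 19.8 or less in the 4 libraries without Gabra6. Neurod1, a proneural transcription factor, had 347 CPM in CON replicate 2, 27.4 in DNP replicate 1 and 18.1 in CON replicate 1. For both genes the lowest library with Gabra6 lay above the highest without.

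The transcription factors Zic1 and Zic2, which granule cells keep into adulthood, also did not overlap. Zic1 had 1011 CPM in CON replicate 2 and 120 in DNP replicate 1, against 25.1 to 65.2 without Gabra6. En2, a homeobox gene of the midbrain-hindbrain boundary, had 226 CPM in CON replicate 2 and 18.8 in DNP replicate 1, against 0.819 to 2.79. Etv1 and Chn2 were the remaining genes without overlap.

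Slc17a7 and Gabrd went the other way. Slc17a7, the vesicular glutamate transporter of cortical neurons as well as granule cells, had 1165 CPM in CON replicate 3 and 158 to 530 in the other libraries with Gabra6, against 766 to 1299 without. Gabrd, the δ subunit that pairs with α6 in granule cells and with α4 in forebrain neurons, had 226 CPM in CON replicate 2 but 22.2 in DNP replicate 1 and 30.2 in BAC replicate 3. Its 4 libraries without Gabra6 lay between 90.7 and 102 CPM. Their Hoxb5 terms were -1.64 for Slc17a7 and -1.93 for Gabrd, and for both genes the libraries with and without Gabra6 overlapped.

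Purkinje cell genes varied with the granule cell genes. Of 19, 17 were higher with Gabra6, 13 of them without overlap, and 13 had a Spearman rho with Gabra6 of 0.9 or more. Of all genes, 5.28% were higher without overlap and 2.54% had such a rho. The median difference over the 19 was 2.35 log2 units, with 2.17 within CON, 1.71 within DNP and 2.24 within BAC. The median Hoxb5 term was -0.33 and no gene had one above 1.

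Pcp2 had 185 CPM in CON replicate 2, 81.5 in BAC replicate 1, 47.9 in CON replicate 3, 39.2 in BAC replicate 3 and 29.4 in DNP replicate 1. It had 3.85 CPM in CON replicate 1 and 0.197 to 0.483 in the other libraries. Only BAC replicate 3 and CON replicate 3 changed places against the order of Gabra6. Car8, a protein that binds the IP3 receptor, gave 1034 CPM in CON replicate 2, 114 in DNP replicate 1, 21.8 in CON replicate 1 and 5.94 to 8.08 in the rest.

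Lhx1 and Skor2, transcription factors of Purkinje cells, were near 0 without Gabra6. Lhx1 had 11.7 to 75.7 CPM in the 5 libraries with Gabra6 and at most 0.796 in the other 4. Skor2 had 3.16 to 17.8 CPM and at most 0.133. Slc1a6, the Purkinje cell glutamate transporter EAAT4, kept a level of 7.37 to 13.5 CPM without Gabra6, against 29.3 to 183 CPM with it.

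Itpr1, the type 1 IP3 receptor, followed less closely, with rho of 0.71 and a Hoxb5 term of -1.40. It had 3149 CPM in CON replicate 2, 1532 in BAC replicate 1, 1479 in CON replicate 3 and 671 in BAC replicate 3. In DNP replicate 1 it had 428 CPM, below CON replicate 1 at 905, DNP replicate 2 at 527 and BAC replicate 2 at 701. Foxp2, a transcription factor that striatal and cortical neurons also express, was lower with Gabra6, by a difference of -0.97 log2 units, and its levels overlapped between the libraries.

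The other cell types of the cerebellar cortex were represented by shorter lists. Of all genes, 5.28% were higher without overlap. Of 5 Bergmann glia genes, 4 were higher and 3 did not overlap, with a median of 1.28. Dao, the D-amino acid oxidase of hindbrain astrocytes, had 6.88 to 63.3 CPM with Gabra6, 0.929 in CON replicate 1 and 0 in the remaining 3. Of 7 interneuron and Golgi cell genes, 5 were higher and 3 did not overlap, with a median of 0.86. Tfap2b, a transcription factor of cerebellar interneuron precursors, had 10.9 to 53.0 CPM against 0.394 to 1.26, and Pax2, another, had 20.4 CPM in DNP replicate 1 but 1.69 in CON replicate 3, with a Hoxb5 term of 2.65. All 3 unipolar brush cell genes were higher on average, with a median of 1.12, and none without overlap. Eomes, a member of that list which olfactory bulb neurons also express, had its highest level, 31.3 CPM, in DNP replicate 2.

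**Figure D3:**
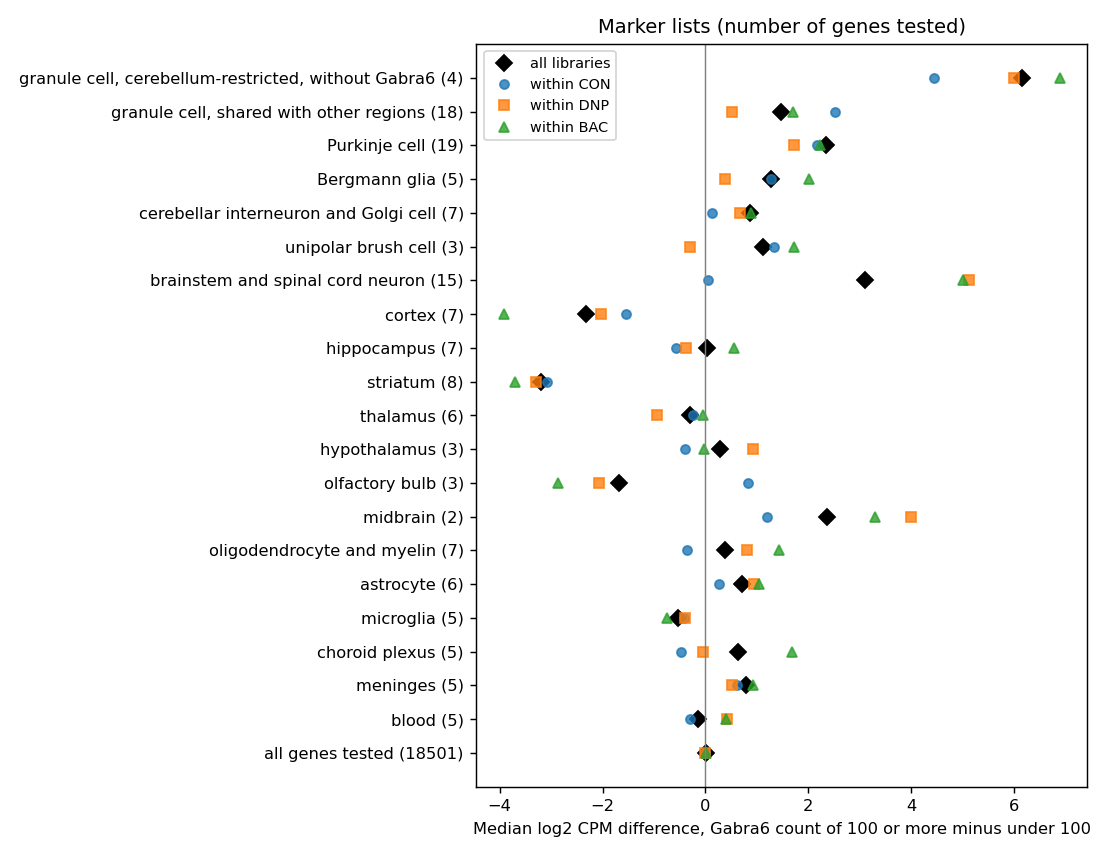
Median difference in mean log2 CPM between libraries with 100 or more Gabra6 counts and those with fewer, for each marker list, over all libraries (diamonds) and within each group. The granule-restricted list without Gabra6 lies at 6.16 and the Purkinje list at 2.35, the brainstem list at 0.06 within CON but 5.12 within DNP and 5.01 within BAC, and the striatum list between -3.70 and -3.07. Hox genes are not plotted.

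Hox and brainstem genes separated from the cerebellar genes when Hoxb5 was taken into account. Of 19 Hox genes listed, 14 passed the filter, Hoxb5 among them. They passed it only through the 3 libraries with Hoxb5, so that being higher there, and a large Hoxb5 term, were fixed beforehand and no median over them is given. The summed Hox level was 100.5 CPM in DNP replicate 1, 306 in BAC replicate 1 and 313 in BAC replicate 3, against 0 to 0.499 in the other 6 libraries. For 11 of the 14 genes the 4 libraries without Gabra6 were all at 0. Hoxa5 had 13.2 CPM in DNP replicate 1, 54.4 in BAC replicate 1, 55.9 in BAC replicate 3 and 0 in the other 6.

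Of 15 brainstem and spinal cord genes, 14 were higher, 4 without overlap against 5.28% of all genes, with a median difference of 3.10. Within CON the median was 0.06, against 5.12 within DNP and 5.01 within BAC. The summed level was 579, 397 and 538 CPM in DNP replicate 1, BAC replicate 1 and BAC replicate 3 and 13.5 to 54.5 elsewhere. The median Hoxb5 term was 4.70, and it was above 1 for all 15, against 1050 of 18501 genes at 1 or more. Several of the 15 were near 0 in the other 6 libraries and passed the filter only through the 3 libraries with Hoxb5.

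Slc6a5, the glycine transporter GlyT2 of inhibitory hindbrain neurons and Golgi cells, followed both markers. It had 288 CPM in DNP replicate 1, 223 in BAC replicate 1 and 164 in BAC replicate 3, but also 28.3 in CON replicate 2 and 4.57 in CON replicate 3, against 0.131 to 0.862 without Gabra6. Its slope was 0.52 and its Hoxb5 term 4.85. Lbx1 and Tlx3, hindbrain and spinal cord transcription factors, were alike in this, with slopes of 0.44 and 0.48 and Hoxb5 terms of 2.63 and 1.11. Tlx3 had 14.5 CPM in CON replicate 2, as high as 14.2 in BAC replicate 1.

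Tph2 and Slc6a4, which make and take up serotonin in raphe neurons, differed among the 3 libraries with Hoxb5. Tph2 had 107 CPM in BAC replicate 3 and 61.9 in DNP replicate 1 but 3.41 in BAC replicate 1, and at most 1.05 elsewhere. Slc6a4 had 73.6, 32.6 and 1.38 CPM in the same libraries and at most 0.138 elsewhere. BAC replicate 1, with more than 3 times the Gabra6 level of BAC replicate 3 and a similar Hoxb5 level, thus had the least of these serotonergic genes.

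**Figure D4:**
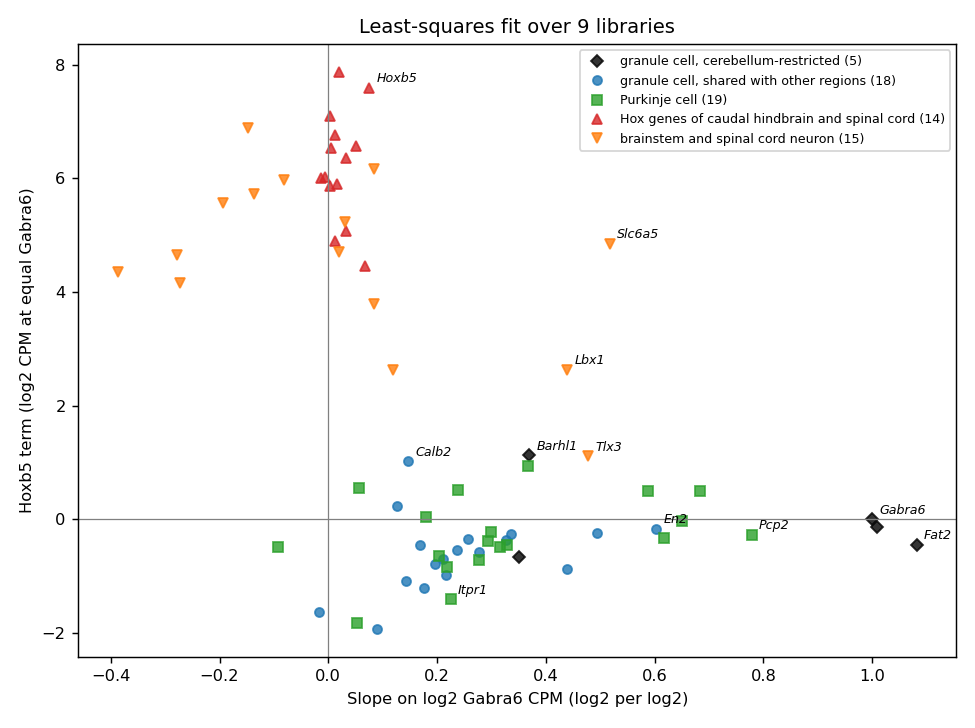
Slope on log2 Gabra6 CPM (horizontal) against the Hoxb5 term in log2 CPM (vertical) for the granule, Purkinje, Hox and brainstem genes, from least-squares fits over 9 libraries. Granule-restricted and Purkinje genes lie to the right near a Hoxb5 term of 0, Hox genes rise along a slope near 0, which their passing the filter through the 3 libraries with Hoxb5 fixed, and Slc6a5 and Lbx1 lie between them.

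Striatal genes ran opposite to Gabra6. All 8 were lower in each of the 5 libraries with Gabra6 than in any of the other 4, as were 5.05% of all genes. The median over the 8 was -3.20 log2 units, and -3.07 within CON, -3.30 within DNP and -3.70 within BAC. Drd1, the D1 dopamine receptor of striatal projection neurons, had 26.2 to 78.5 CPM without Gabra6. With it, Drd1 had 12.6 CPM in CON replicate 3 and 1.28 to 1.67 in the other 4. Adora2a, the adenosine receptor of striatal projection neurons that also carry D2 receptors, had 41.7 to 124 CPM without and 1.96 to 16.6 with Gabra6. The median slope on Gabra6 was -0.31 and the median Hoxb5 term -1.29. The summed level of the list was 932 to 1680 CPM without and 193 to 402 with Gabra6.

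Cortical genes were lower as well, all 7 of them, with a median of -2.33, but none without overlap. Their median slope on Gabra6 was -0.09 and their median Hoxb5 term -2.53. At equal Gabra6 all but Lamp5, with a term of 1.29, were thus lower in the libraries with Hoxb5. For all but Lamp5, CON replicate 3 was the library with Gabra6 that overlapped the others. It had 140 CPM of Tbr1, a transcription factor of deep-layer neurons, against 1.83 to 16.7 in the other 4 libraries with Gabra6 and 90.9 to 168 without. The summed cortical level in CON replicate 3, 658 CPM, was close to the 659 of CON replicate 1. CON replicate 3 thus combined Gabra6 with cortical levels like those of the libraries without it.

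Both midbrain genes that passed the filter, of 5 listed, were higher on average with Gabra6, with a median of 2.36 and Hoxb5 terms above 1. Neither was without overlap. Slc6a3 had 56.6 CPM in BAC replicate 3 and 9.63 in DNP replicate 1, but 0.145 in BAC replicate 1 and 0 in CON replicate 2. It had 4.44 CPM in DNP replicate 2, without Gabra6, and its rho with Gabra6 was -0.29. En1 had 11.2 CPM in BAC replicate 3 and 5.72 in DNP replicate 1, but 0 in CON replicate 3. Medians of the remaining lists were 0.03 for hippocampus, -0.29 for thalamus, 0.29 for hypothalamus and -1.69 for olfactory bulb. They were 0.38 for myelin, 0.71 for astrocytes, -0.53 for microglia, 0.64 for choroid plexus, 0.80 for meninges and -0.15 for blood. Myelin genes had a median Hoxb5 term of 1.73, above 1 in all 7, against 1050 of 18501 genes at 1 or more. The summed myelin level was 6942 to 9432 CPM in the 3 libraries with Hoxb5, 7063 in DNP replicate 3 and 2224 to 3739 in the other 5. Choroid plexus genes spanned 22.9 to 1247 CPM with and 15.2 to 1380 CPM without Gabra6. The part of these tissues in the differences above was not tested.

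Across all genes, 470 of 18501 (2.54%) had a Spearman rho with Gabra6 of 0.9 or more over the 9 libraries and 265 (1.43%) had -0.9 or less. Since 3 libraries tie at 0 for Gabra6, 33 pairs of libraries can be ordered, and 44 of the 470, Gabra6 among them, kept all 33. Of the 470 genes, 218 differed by at least 1 log2 unit and 366 did not overlap. In 468 the difference had the same sign within CON, DNP and BAC, and 192 differed by at least 1 within CON, where Hoxb5 was absent. The genes share the 9 libraries and their order chose them, so these counts are descriptions.

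The Hoxb5 term was at least 1 in 3 of the 470, against 1050 of all 18501 genes. They were Irx3os at 1.36, Vwa7 at 1.18 and Pax3, a paired-box factor, at 1.12, named here after their values were seen. Within the strata of libraries alike in Hoxb5, 15 pairs can be ordered and 234 of the 470 kept all of them. The 470 genes were chosen by the order of Gabra6, in which CON replicate 2, under 100 Hoxb5 counts, comes first. A gene much higher with Hoxb5 breaks that order. The small number with a Hoxb5 term of at least 1 was therefore largely fixed by the choice.

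The 15 genes with the highest rho and a mean of at least 1 CPM, all with 33 of 33 pairs in order, were Slc5a1, Cbln3, Cnpy1, Ppp1r17, En2, Tfap2b, Cbln1, Arhgef33, Tfap2a, Emilin3, Gm2694, Slc1a6, Cep76, Tead4 and Casq2. Their differences ran from 2.27 to 8.30 log2 units and their Hoxb5 terms from -0.60 to 0.45. Cnpy1, a regulator of FGF signalling at the midbrain-hindbrain boundary, had 392 CPM in CON replicate 2, 33.2 in DNP replicate 1, 5.04 in CON replicate 1 and 0.131 to 0.138 in the rest. Its difference was 7.42 and its slope 0.92, next to Cbln3. Slc5a1, the sodium-glucose cotransporter SGLT1, was low, with 10.8 CPM in CON replicate 2, 1.16 in DNP replicate 1 and at most 0.597 without Gabra6.

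Several of these genes stood in none of the marker lists. Casq2, a calcium-binding protein of the endoplasmic reticulum, had 3.77 to 24.5 CPM with and 1.24 to 1.99 without Gabra6. Arhgef33, a guanine nucleotide exchange factor, had 20.6 to 151 CPM with and 2.53 to 6.57 without. Tead4, a transcription factor of the Hippo pathway, had 0.869 to 9.77 CPM with and 0.273 to 0.597 without. Gm2694, a long noncoding RNA gene, has a span that overlaps that of Cbln1 on the opposite strand. Because the libraries carry no strand, reads in the shared stretch cannot be told apart by strand. Whether exons of both genes overlap there was not examined.

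The 5 genes with the lowest rho were 1810020O05Rik, Asb2, Gpr34, Zmat2 and Otub1, each in reverse order in all 33 pairs. Their differences were small, from -1.59 to -0.32 log2 units. Asb2, a subunit of a ubiquitin ligase, had 1.43 to 3.40 CPM with and 3.98 to 8.53 without Gabra6. Gpr34, a lysophosphatidylserine receptor of microglia, had 4.21 to 6.95 CPM with and 7.89 to 12.6 without, and Cask overlaps it on the opposite strand. Otub1, a deubiquitinase, differed least, with 139 to 205 CPM with and 206 to 231 without.

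**Figure D5:**
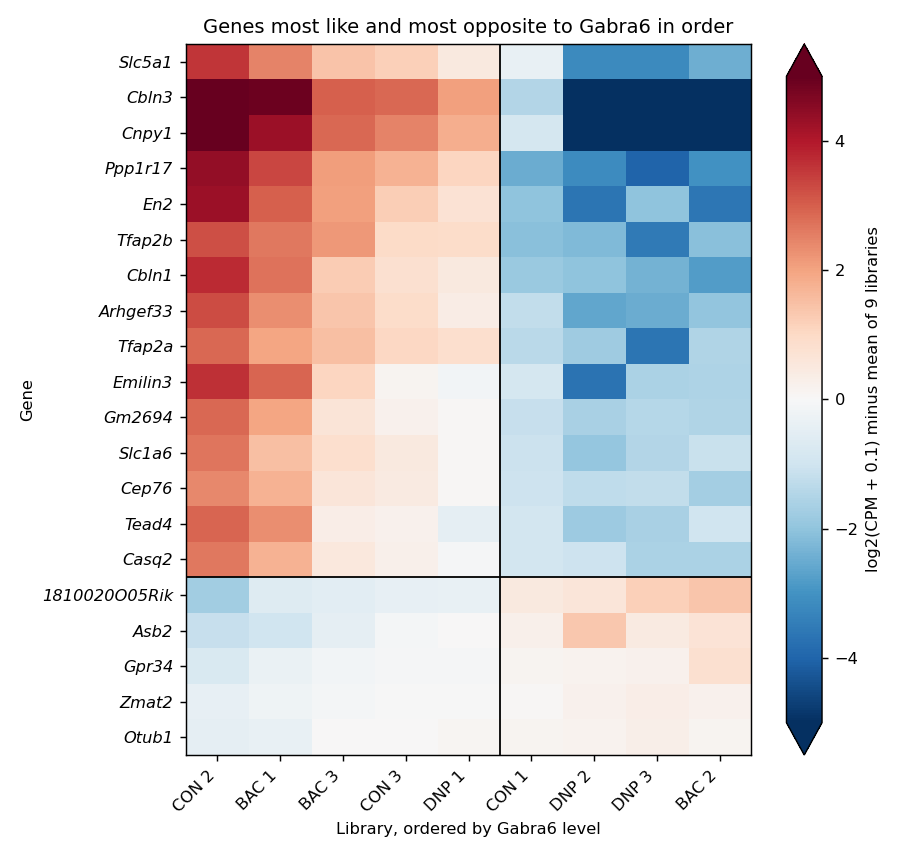
log2(CPM + 0.1) of the 15 genes with the highest and the 5 with the lowest rho with Gabra6, each minus its mean over the 9 libraries, with libraries in order of Gabra6. Colours stop at 5 log2 units either way, and the upper rows fade from left to right in steps whereas the lower rows deepen less.

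The labelled groups did not share these libraries evenly, as 2 of 3 CON, 1 of 3 DNP and 2 of 3 BAC libraries held 100 or more Gabra6 counts. The comparisons of the groups ask what differs in the diabetic pain model and after baclofen, and here they were read for the cerebellar genes alone. In edgeR's quasi-likelihood test over 9 libraries, none of the 18501 genes passed a Benjamini-Hochberg adjusted p of 0.05 when DNP was set against CON, BAC against DNP or BAC against CON (0% in each). At an unadjusted p under 0.05 there were 2067 (11.2%), 438 (2.37%) and 1436 (7.76%) genes, in the same order. DESeq2 gave 346, 7 and 101 at an adjusted p of 0.05.

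Gabra6 was lower in DNP than in CON by a log2 fold change of -3.67 (SE 2.51, edgeR adjusted p = 0.613, n = 3 each). It was higher in BAC than in DNP by 3.08 (SE 2.45, edgeR adjusted p = 0.998) and differed by -0.59 between BAC and CON (SE 2.25, edgeR adjusted p = 0.957). The 2 CON libraries above 100 counts, 51.6 and 344 CPM, lay above the 3 DNP libraries at 31.3, 0 and 0, whereas CON replicate 1 at 2.79 did not. Without CON replicate 2 the DNP versus CON value was -1.39 and the BAC versus CON value 1.70, and without BAC replicate 1 the latter was -2.16. Without DNP replicate 1, which leaves DNP at 0, the DNP versus CON value was -13.93 and the BAC versus DNP value 13.33, which depend on the prior count.

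The genes in graded order followed suit. All 470 were lower in DNP than in CON, with a median log2 fold change of -0.68, and all 470 were higher in BAC than in DNP, with a median of 0.54. Their choice by the order of libraries fixes most of this direction. At an unadjusted p under 0.05, 66 of them (14.0%) were lower in DNP than in CON. Of all genes, 5.46% were lower and 11.2% differed in either direction. In BAC versus DNP 11 (2.34%) were higher, against 1.37% of all genes higher and 2.37% in either direction. The choice put all 470 on the same side in these comparisons, so the shares in either direction are the closer match. No excess is read from them. In BAC versus CON there were none in either direction, against 4.46% higher and 3.3% lower of all genes. Of the 265 genes in opposite order, all were higher in DNP than in CON, 2 of them at an unadjusted p under 0.05 (0.755%), against 5.71% of all genes.

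Itpr1, which followed Gabra6 less closely, was lower in DNP than in CON by a log2 fold change of -2.04 (SE 0.49, edgeR adjusted p = 0.294, n = 3 each; DESeq2 adjusted p = 0.00479). With Gabra6 as a covariate in the edgeR fit the value was -1.43 (SE 0.51, adjusted p = 0.160), and with Gabra6 and Hoxb5 it was 0.47 (SE 0.59, adjusted p = 0.795). For Neurod1 it was -3.27 (SE 1.28, edgeR adjusted p = 0.409) in the fit of groups alone and -0.64 (edgeR adjusted p = 0.679) with Gabra6. With both covariates it was 1.92 (SE 0.90, edgeR adjusted p = 0.589). Both genes changed sign in the fit with both covariates and not in that with Gabra6 alone. No CON library held 100 Hoxb5 counts, so the Hoxb5 term is bound up with group in that fit. The cause of the change in sign was not tested. With both covariates, Cbln3 also turned, to 0.25 (SE 0.51), whereas Fat2 stayed at -1.93 (SE 0.71) and Pcp2 at -0.11 (SE 0.53). Since DNP and BAC libraries with Gabra6 all carried Hoxb5 and CON libraries did not, group, cerebellar content and hindbrain content cannot be told apart by 9 libraries.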

How the data were processed

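Whole-brain poly(A) RNA of 9 mice was sequenced in paired-end, non-strand-specific libraries. Per the study's methods and the submitters' processing notes, reads passed FastQC 0.11.9 and fastp, were aligned by HISAT2 2.1.0 to GRCm38 and quantified by StringTie 1.3.3b. Bowtie2 2.3.4.1 is also named. The authors deposited raw counts per gene and FPKM. Each deposited FPKM value equals the count divided by gene length and library total. The handling of multi-mapped reads is not given in the sources used here.

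Counts were filtered by filterByExpr (minimum count 10), scaled by TMM and fitted in 1 model of the 3 groups with edgeR 4.0.16 in R 4.3.3, with the Benjamini-Hochberg threshold at 0.05. DESeq2 1.42.0 was an alternative. Log2 CPM used a prior count of 2, with CPM plus 0.1 in plots (matplotlib 3.10.9, Python 3.11.15). Spearman's rho used CPM. Intervals are exact and cover counting error only. The biological coefficient of variation was 36.5%. Library totals were 13107382 to 16008129 counts.

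The split of libraries, the 21 marker lists (168 genes, 154 tested) and all tests were chosen with earlier results of these data known. Genes named are Gabra6, Hoxb5, list members and, among genes with a mean of at least 1 CPM, the 15 with the highest and 5 with the lowest rho, ties ordered by the log2 difference. Irx3os, Vwa7 and Pax3 were named after their values were seen. Some list members are not reported here. Replicate numbers did not pair the libraries. Promoter windows came from RefSeq, where Hoxb5, Cbln1, En2, Car8 and Ppp1r17 had no entry. The statistics were tested on simulated data.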

Additional observations from a re-analysis of the deposited data

Results flagged for a closer look

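For 6 marker lists the difference between libraries with and without Gabra6 ran one way in every library of 1 group and the opposite way in every library of another. These contrasts between groups were not tested, and each rests on 1 to 2 libraries on either side. Each value below is the median log2 difference over the genes of a list, averaged over the libraries with Gabra6 in a group. For oligodendrocyte and myelin genes it was -0.35 in CON, 0.81 in DNP and 1.42 in BAC, so that CON lay below DNP by -1.1652 and below BAC by -1.7738. For blood genes it was -0.31 in CON, 0.43 in DNP and 0.44 in BAC, gaps of -0.7364 and -0.7483. For hypothalamus genes CON and DNP differed by -1.3202, at -0.40 and 0.92.

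Olfactory bulb genes went against this, at 0.83 in CON, -2.07 in DNP and -2.87 in BAC, with gaps of 2.8908 and 3.7001. Their summed level was 245 CPM in DNP replicate 2 and 82.0 in BAC replicate 2, against 10.5 to 24.2 in the other 7 libraries. For unipolar brush cell genes, which share Eomes with the olfactory bulb list, CON exceeded DNP by 1.6405, and DNP lay below BAC by -2.0222. For choroid plexus genes the value was -0.51 in CON, -0.04 in DNP and 1.68 in BAC, gaps of -2.1887 between CON and BAC and -1.726 between DNP and BAC. In the libraries with Gabra6, Hoxb5 was over 100 in DNP and BAC and at most 2 counts in CON, and its part in these gaps was not tested.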

How the results depend on the processing

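All 20 genes chosen by rho kept the sign of their difference in 300 of 300 alternative values. Their choice, with all 33 pairs in order or in reverse order, largely fixed this. Over the 168 genes named, list members included, 2449 of 2520 values kept the sign. Genes in graded order numbered 1216 at rho of 0.8 and 295 by Pearson r of 0.9, and genes in opposite order to Gabra6 numbered 1058 and 141. Leaving out 1 library in turn gave 527 to 845 in graded order, 290 to 559 in opposite order, 1075 to 2071 higher without overlap and 964 to 2461 lower without overlap. Fewer libraries make order and separation easier to reach, and the largest values came without CON replicate 1 (845) or CON replicate 3 (2071, 559 and 2461). The granule-restricted median, Gabra6 included, was 6.50 on log2(FPKM + 0.1) values, and the hippocampus and hypothalamus medians ran from -0.50 to 0.22 and from -0.21 to 0.50 with 1 library left out, turning without BAC replicate 2 and without DNP replicate 1. Genes passing an adjusted p of 0.05 numbered 346, 7 and 101 by DESeq2 for DNP against CON, BAC against DNP and BAC against CON, and 105 (47 higher, 58 lower) for BAC versus CON in edgeR with Gabra6 as a covariate. With 1 library left out they numbered 0 to 1 in DNP versus CON and 0 to 1 in BAC versus CON, the 1 appearing without CON replicate 2 or CON replicate 3. With Gabra6 and Hoxb5 as covariates, Cbln3 turned to 0.25 in DNP versus CON and 0.35 in BAC versus CON, Neurod1 to 1.92 and 2.71, Itpr1 to 0.47 and 1.39, and Fat2 and Pcp2 to -0.058 and -0.24 in BAC versus DNP. Pcp2 was at -0.22 there with Gabra6 alone. With 1 library left out, BAC versus CON ran from -2.16 to 1.70 for Gabra6, -2.48 to 1.72 for Cbln3, -2.60 to 1.34 for Fat2, -2.16 to 0.96 for Neurod1 and -1.997 to 0.65 for Pcp2, lowest without BAC replicate 1 and turning without CON replicate 2. The cause was not tested. With the replicate number as a block, 0 genes passed in each comparison and 1688, 382 and 1203 had an unadjusted p under 0.05. The deviations of same-numbered libraries correlated at -0.58 to 0.56, and 2 of 9 libraries correlated best with their own number, so the numbers were not taken as a pairing. Gabra6 levels near 0 were limited by depth at about 0.2 CPM.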

Other observations

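Cholinergic genes showed a pattern that neither marker described alone. Chat, which makes acetylcholine, had 0 CPM in CON replicate 2 and 1.26 in CON replicate 3, 2.69 to 11.2 in the 4 libraries without Gabra6, and 9.81 in BAC replicate 1 and 12.9 in DNP replicate 1, with its highest level in BAC replicate 3. Slc5a7 and Slc18a3, the choline and vesicular acetylcholine transporters, likewise had 0.927 and 0.428 CPM in CON replicate 2 and 38.5 and 25.9 in DNP replicate 1. Their slopes on Gabra6 were -0.27 and -0.28 and their Hoxb5 terms 4.15 and 4.65, and that of Chat was 4.35 with a slope of -0.39. Cholinergic neurons lie in the striatum as well as in the brainstem and spinal cord.

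Blood genes differed between the labelled groups more than between libraries with and without Gabra6. The summed level of 5 genes of haemoglobin chains and haem synthesis was 188 to 218 CPM in CON and 471 to 735 CPM in DNP and BAC, without overlap. By edgeR all 5 differed at an unadjusted p under 0.05 between DNP and CON and between BAC and CON (11.2% and 7.76% of all genes tested did), and none passed the adjusted threshold of 0.05.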
